A study of Mus musculus with 6 samples.

Results

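Integrins and other cell-matrix receptors were examined in the epithelium and the mesenchyme of the mouse small intestine at E18.5, shortly before birth. The set held 34 genes: 22 integrin subunits, 7 other matrix receptors (dystroglycan, both discoidin domain receptors and the syndecans) and 5 proteins of the cytoplasmic side of adhesions. Members were taken by gene symbol, with every probe set that the platform annotation names for them, which gave 90 of 45037 probe sets and 34 of 18161 named genes. All 34 were measured, 25 of them by several probe sets (up to 8), and no low value was filtered out. The groups were epithelium (3 arrays, A, B and C) and mesenchyme (3 arrays, A, B and C). All tissue came from E18.5 embryos of C57BL/6 females, with no treatment or transgene stated. The opened intestine was held for 9 hours at 4 °C in a recovery solution and then shaken until the epithelium came off. Each array carried RNA of 1 pool of 3 embryos. Of 6 pools prepared per tissue, 3 were chosen because RT-PCR found little RNA of the other tissue in them, so the arrays are not a random sample of pools.

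Integrins are receptors of an α and a β subunit that span the membrane and hold the cell to matrix proteins or to other cells. The β tail is bound by talin, which with vinculin, paxillin, integrin-linked kinase and parvin ties the receptor to actin. Epithelia stand on a laminin-rich basement membrane and are known for the integrins α3β1 and α6β4, whereas fibroblasts and muscle meet fibronectin and collagen fibres. In the gut wall the mesenchyme also holds smooth muscle, vessels, nerves and leukocytes, each with integrins of its own.

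Each probe set carries a log2 expression value in steps of 0.1, and array medians were from 8.1 to 8.6 in the epithelium and from 8.5 to 8.7 in the mesenchyme. Arrays correlated at 0.978 to 0.984 within a tissue and at 0.773 to 0.813 between tissues. Defining markers followed the labels, with 8 of 8 epithelial markers called higher in the epithelium and 8 of 8 each of smooth muscle, fibroblasts and endothelium called lower there. Their summed linear levels were 70596 to 95979 in epithelial and 3390 to 5464 in mesenchymal arrays for the epithelial list, 1824 to 2268 in epithelial and 90332 to 98504 in mesenchymal arrays for fibroblasts, and 2183 to 2812 in epithelial and 23155 to 27808 in mesenchymal arrays for endothelium. Of 6 mesothelium markers, 4 were called lower in the epithelium (66.7%, against 15.9% of all genes), and Krt19 was called higher there. The summed linear level of these 6 was 9045 to 12210 in epithelial and 5456 to 5733 in mesenchymal arrays. Most of the epithelial sum was Krt19, at 12.8, 13.2 and 12.7 in the epithelium, against 10.3, 9.9 and 10.2 in the mesenchyme. The mean log2 value of the 6 was 8.17 to 8.45 in epithelial and 9.45 to 9.57 in mesenchymal arrays. The part of any of these cell types in the members' differences was not tested. The mesenchyme is a mixture, so fewer cells of a type and less RNA per cell cannot be told apart. A gene's level is its brightest probe set, a difference is the epithelial minus the mesenchymal mean on the log2 scale, and a gene was called at an adjusted p under 0.05 (limma, Benjamini-Hochberg over all genes) with at least a 2-fold difference. Standard errors of the members' differences ran from 0.228 to 0.233, since limma drew each gene's spread almost fully to a shared one. The number of arrays limits the precision. The files mark no background, so the 95th percentile of 27 bacterial control probe sets on each array, 7.17 to 7.71, was taken as the level below which a signal is not above background. These controls averaged 5.92 to 6.07 in epithelial and 5.87 to 6.25 in mesenchymal arrays. The brightest probe sets of 5 members lay at or below that level on every array of 1 tissue, those of Itga1, Itga8, Itgb8 and Itgam in the epithelium and that of Itgb6 in the mesenchyme. For such a probe set a measured difference is given with its SE, but the fold is a lower bound, taken against the higher of that level and the signal on each dim array.

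Most of the set was lower in the epithelium. Of the 34 members, 2 were called higher in the epithelium (5.9%, where 8.20% of all genes were called that way) and 19 were called lower there (55.9%, where 15.9% of all genes were). The 2 epithelial genes were the integrin β subunits Itgb6 and Itgb4. The median difference was -1.33 over the members, against -0.17 over all genes. Epithelial and mesenchymal arrays did not overlap for 26 members, with the epithelium above for 6 (17.6%, against 16.0% of all genes) and below for 20 (58.8%, against 30.5%). Adjusted p-values of the 21 called members were 6.71e-06 or lower in limma, and 0.0373 or lower when each gene was tested on its own spread alone, which kept all 21 calls. Of all genes called, 66.0% were lower in the epithelium, a share that moved with the scaling of the arrays, to 49.4% with equal medians, 52.5% with ribosomal centring, 53.0% after quantile normalization, 55.4% after cyclic loess and 77.5% with equal spike-in controls (66.8% without mesenchyme B, whose spike-in controls were low). Among members it was 90.5%, and 81.0% to 90.9% under these scalings. Without epithelium A, the array of the lowest median, 4 members were called higher in the epithelium in place of 2.

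**Figure D1:**
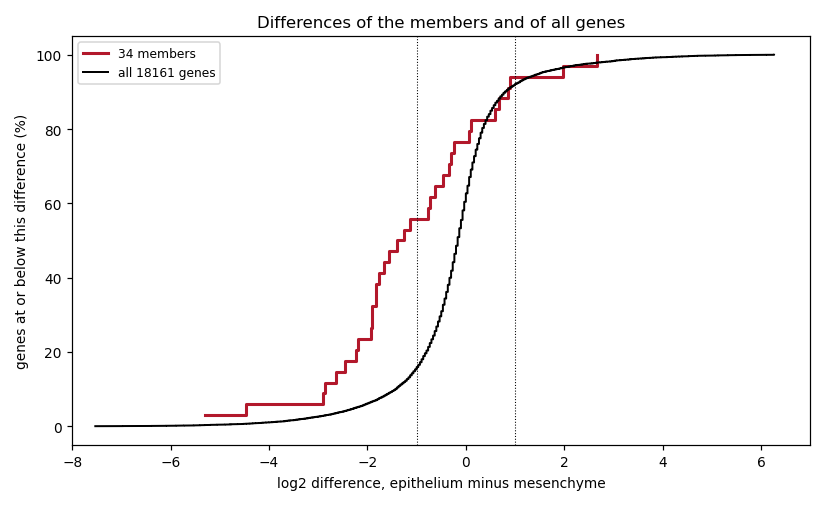
Cumulative share of genes (y axis, %) at or below each log2 difference, epithelium minus mesenchyme (x axis), for the 34 members and for all 18161 genes; dotted lines mark a 2-fold difference. The members' curve lies to the left of that of all genes on the negative side and runs close to it on the positive side, with medians of -1.33 and -0.17.

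**Figure D2:**
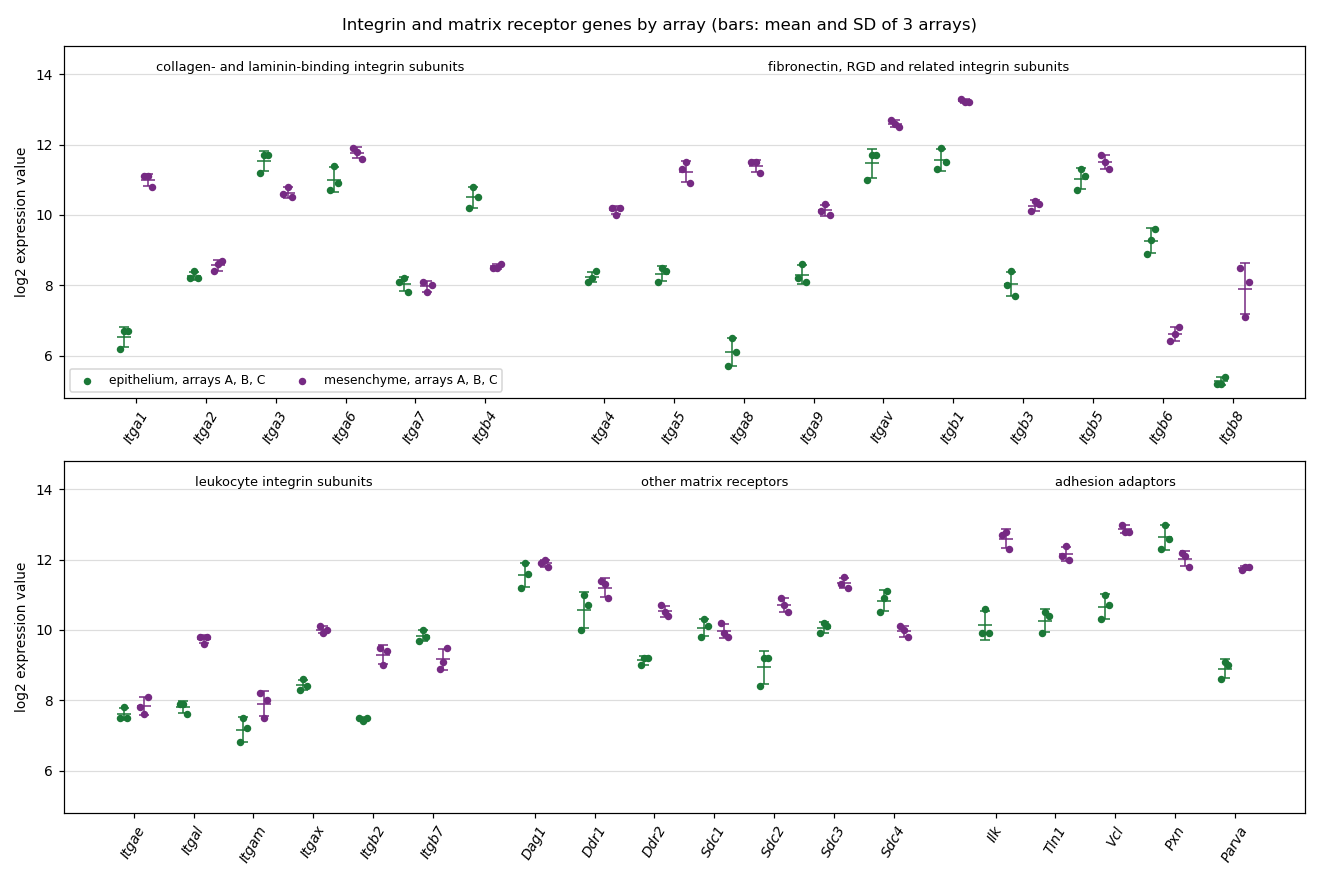
Log2 expression value (y axis) of each member's brightest probe set in the 3 epithelial (left) and the 3 mesenchymal arrays (right), with the mean and SD of 3 arrays, by role. Itgb4 and Itgb6 stand higher in the epithelium and Itga1, Itga8 and Parva lower, without overlap.

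Promoter sequence was available for 24 of the members, in 31 stretches of 250 bases before an annotated start (RefSeq, GRCm38.p6). They are shown for Itgb6, the epithelial gene with an entry, at its upstream and its downstream start, for Itga8 and Itga1, which had the largest measured differences in the other direction, for Vcl as an adaptor and for Sdc4 as a gene that was not called. Each is printed 5′ to 3′ on the gene's strand, and capitals mark matches to the motifs named after them.
Itgb6, chr2:60722604-60722853, - strand: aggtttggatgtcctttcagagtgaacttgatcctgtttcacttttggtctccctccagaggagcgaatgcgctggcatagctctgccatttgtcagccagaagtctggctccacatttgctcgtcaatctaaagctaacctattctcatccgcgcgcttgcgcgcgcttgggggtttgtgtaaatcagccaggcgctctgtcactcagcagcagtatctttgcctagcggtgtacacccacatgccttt
Itgb6, chr2:60673694-60673943, - strand: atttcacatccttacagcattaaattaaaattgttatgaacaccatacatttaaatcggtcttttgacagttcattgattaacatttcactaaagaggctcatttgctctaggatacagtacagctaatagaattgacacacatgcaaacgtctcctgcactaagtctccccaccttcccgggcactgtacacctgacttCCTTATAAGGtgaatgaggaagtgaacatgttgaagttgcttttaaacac
Itga8, chr2:12301945-12302194, - strand: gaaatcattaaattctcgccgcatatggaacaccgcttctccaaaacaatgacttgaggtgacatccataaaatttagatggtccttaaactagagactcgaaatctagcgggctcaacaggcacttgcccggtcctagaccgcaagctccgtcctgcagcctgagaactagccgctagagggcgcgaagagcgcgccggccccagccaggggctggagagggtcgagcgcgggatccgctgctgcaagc
Itga1, chr13:115101965-115102214, - strand: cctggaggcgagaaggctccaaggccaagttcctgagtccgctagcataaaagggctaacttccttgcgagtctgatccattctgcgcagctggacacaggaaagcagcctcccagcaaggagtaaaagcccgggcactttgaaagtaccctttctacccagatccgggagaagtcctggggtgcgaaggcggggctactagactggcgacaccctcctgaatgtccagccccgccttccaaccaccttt
Vcl, chr14:20929148-20929397, + strand: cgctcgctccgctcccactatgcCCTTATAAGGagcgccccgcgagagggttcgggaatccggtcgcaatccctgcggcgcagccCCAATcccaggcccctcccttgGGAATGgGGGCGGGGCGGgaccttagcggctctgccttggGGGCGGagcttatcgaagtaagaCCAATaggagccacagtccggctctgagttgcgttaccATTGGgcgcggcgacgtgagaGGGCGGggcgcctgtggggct
Sdc4, chr2:164443189-164443438, - strand: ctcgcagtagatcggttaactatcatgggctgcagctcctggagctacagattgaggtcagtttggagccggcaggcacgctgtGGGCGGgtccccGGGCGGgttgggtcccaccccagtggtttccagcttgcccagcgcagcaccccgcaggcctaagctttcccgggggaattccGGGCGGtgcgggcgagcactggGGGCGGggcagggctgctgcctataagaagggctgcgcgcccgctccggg

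Motifs were searched on both strands and counted by position, so that a palindromic match counts once and matches may overlap. They were the GC box (GGGCGG), the CCAAT box (CCAAT), the TATA box (TATAAA), the AP-1 site (TGANTCA), the TEAD site (GGAATG) and the CArG box, which is bound by serum response factor, a regulator of muscle and actin genes. The stretch of Vcl held a CArG box, 4 GC boxes, 3 CCAAT boxes and a TEAD match, the downstream stretch of Itgb6 a CArG box, and that of Sdc4 4 GC boxes. The stretches of Itga8 and Itga1 and the upstream stretch of Itgb6 held none of these letters, which says nothing beyond these windows. A GC box was found in 6 of 15 stretches of members lower in the epithelium, in 0 of 2 of Itgb6 and in 11 of 14 of members without a call, against 32.7% of all 32851 stretches in the table. Of all stretches, 33.8% held a CCAAT box, 12.4% a TATA box, 6.7% an AP-1 site, 12.6% a TEAD site and 1.5% a CArG box. Several stretches of a gene overlap or share its call, and these matches are a description of letters, not of bound sites.

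The subunits of laminin- and collagen-binding integrins went in different directions. Itgb4, whose product joins α6 in hemidesmosomes and reaches the keratin network, stood at 10.2, 10.8 and 10.5 in epithelium A, B and C, against 8.5, 8.5 and 8.6 in mesenchyme A, B and C. The tissues did not overlap, and the difference was 1.97 ± 0.23 (SE), or 3.91-fold higher in the epithelium (adjusted p = 6.75e-15 in limma, 3 arrays per tissue). Itga6, the α subunit that Itgb4 needs, stood at 10.7, 11.4 and 10.9 in the epithelium, against 11.9, 11.8 and 11.6 in the mesenchyme. It lay lower in the epithelium without overlap, by less than the 2-fold that a call needs (-0.77 ± 0.23, limma adjusted p = 0.00298), and was called at -1.03 with equal spike-in controls, but not without mesenchyme B (-0.72, limma adjusted p = 0.054). Itga3, the laminin receptor subunit of epithelial cells, stood at 11.2, 11.7 and 11.7 in the epithelium, against 10.6, 10.8 and 10.5 in the mesenchyme. Its excess in the epithelium, 0.90 ± 0.23 (limma adjusted p = 0.0004), also fell short of 2-fold. It passed at 1.20 with equal medians, 1.02 after quantile normalization, 1.01 after cyclic loess, 1.14 with ribosomal centring, 1.00 in the mean of its probe sets and 1.07 without epithelium A.

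Of the collagen receptor subunits, Itga1 was called and Itga2 was not. Itga1, a receptor subunit for basement membrane and fibrillar collagens that is typical of smooth muscle and microvessels, stood at 6.2, 6.7 and 6.7 in the epithelium, against 11.1, 11.1 and 10.8 in the mesenchyme. The epithelial signal was not above background, so Itga1 was at least 12.3-fold lower in the epithelium (measured difference -4.47 ± 0.23, limma adjusted p = 2.17e-51). Itga2, the collagen receptor subunit of platelets and many epithelia, stood at 8.2, 8.4 and 8.2 in the epithelium, against 8.4, 8.6 and 8.7 in the mesenchyme, where the tissues overlapped (-0.30 ± 0.23, limma adjusted p = 0.302). Itga7, the laminin receptor subunit of muscle, averaged 8.03 ± 0.21 in the epithelium and 7.97 ± 0.15 in the mesenchyme (SD, n = 3 each), and was not called while all 8 smooth muscle markers were lower in the epithelium. Its 1 probe set, at 7.8 to 8.2, lay near the highest bacterial controls of the arrays (7.6 to 8.3).

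Receptors for fibronectin, other RGD proteins and latent TGF-beta were lower in the epithelium for 8 of 10 subunits (80.0%, against 15.9% of all genes). Of the 10, 1 was higher there (10.0%, against 8.20%). Itgb6, which joins αv in epithelial cells, binds fibronectin and the latency peptide of TGF-beta and is known to activate it, stood at 8.9, 9.3 and 9.6 in the epithelium, against 6.4, 6.6 and 6.8 in the mesenchyme. The mesenchymal signal was not above background, so Itgb6 was at least 3.55-fold higher in the epithelium (measured difference 2.67 ± 0.23, limma adjusted p = 2.57e-24). Its other probe set, equally bright, gave at least 3.80-fold. Itgb8, which also joins αv and releases TGF-beta from latency, went the opposite way. It stood at 5.2, 5.2 and 5.4 in the epithelium, against 8.5, 7.1 and 8.1 in the mesenchyme (measured difference -2.63 ± 0.23, limma adjusted p = 3.38e-23). All 3 epithelial arrays and mesenchyme B were not above background, so Itgb8 was at least 1.43-fold lower in the epithelium, a bound below the 2-fold of a call. Mesenchyme B lay lowest but above every epithelial array, and the SD of 0.72 in the mesenchyme was the widest of the members in either tissue.

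Itga8 had the largest measured difference of the set. Its product, with β1, is a receptor for nephronectin, and it is known from mesenchymal and smooth muscle cells. It stood at 5.7, 6.5 and 6.1 in the epithelium, against 11.5, 11.5 and 11.2 in the mesenchyme (measured difference -5.30 ± 0.23, limma adjusted p = 3.26e-63). The epithelial signal was not above background, so Itga8 was at least 16.2-fold lower in the epithelium. Itga5, the main fibronectin receptor subunit, stood at 8.1, 8.5 and 8.4 in the epithelium, against 11.3, 11.5 and 10.9 in the mesenchyme (7.46-fold lower in the epithelium). Itgb3, which joins αv on vessels and the α subunit Itga2b on platelets, stood at 8.0, 8.4 and 7.7 in the epithelium, against 10.1, 10.4 and 10.3 in the mesenchyme (4.70-fold lower in the epithelium). Its platelet partner Itga2b differed by -0.30 and was not called. Itga2b is itself 1 of 6 platelet markers, of which Pf4 was called lower in the epithelium (16.7%, against 15.9% of all genes). Ppbp was lower there without overlap but by less than 2-fold (-0.97, limma adjusted p = 0.000152), and the other 4 overlapped between tissues. Their part in the difference of Itgb3 was not tested.

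Of the subunits shared by many receptors, Itgb1 and Itgav were both lower in the epithelium. Itgb1, the partner of most α subunits, stood at 11.3, 11.9 and 11.5 in the epithelium, against 13.3, 13.2 and 13.2 in the mesenchyme (-1.67 ± 0.23, 3.17-fold lower in the epithelium). Itgav, the α subunit of most receptors for RGD proteins, stood at 11.0, 11.7 and 11.7 in the epithelium, against 12.7, 12.6 and 12.5 in the mesenchyme (-1.13 ± 0.23, 2.19-fold lower in the epithelium). The call of Itgav ended with equal medians (-0.83), with ribosomal centring (-0.89), in the mean of its probe sets (-0.79) and without epithelium A (-0.90). Itga4, a receptor subunit for fibronectin and VCAM-1 on leukocytes and neural crest cells, stood at 8.1, 8.2 and 8.4 in the epithelium, against 10.2, 10.0 and 10.2 in the mesenchyme (3.73-fold lower in the epithelium). Of 6 markers of enteric neurons and glia, cells of neural crest origin, 3 were called lower in the epithelium, and their part in this difference was not tested. Itga9, which binds tenascin and VCAM-1, stood at 8.2, 8.6 and 8.1 in the epithelium, against 10.1, 10.3 and 10.0 in the mesenchyme (3.56-fold lower in the epithelium). The calls of Itga4 (-0.98) and Itgb1 (-0.97) ended in the mean of their probe sets. Itgb5, a vitronectin receptor subunit, overlapped between tissues (-0.47 ± 0.23, limma adjusted p = 0.0878).

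**Figure D3:**
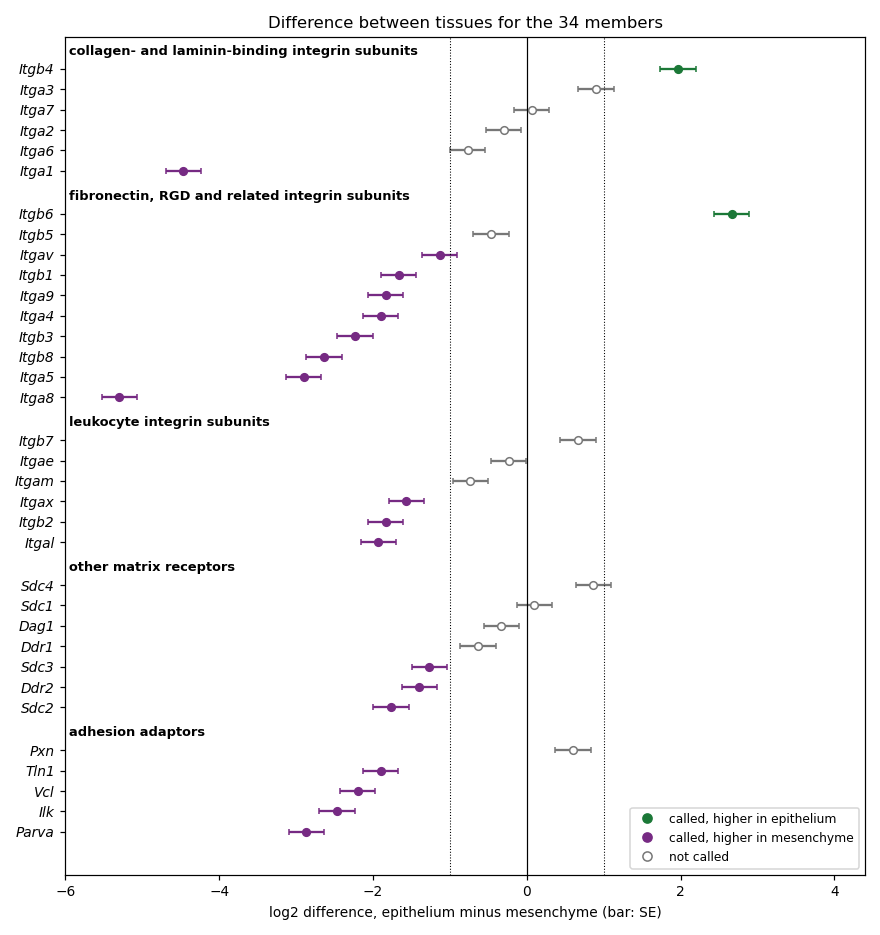
Log2 difference, epithelium minus mesenchyme (x axis, bars are SE), of the 34 members grouped by role; filled points are called and dotted lines mark a 2-fold difference. Itgb6 (2.67) and Itgb4 (1.97) are called on the right, and the 19 genes called on the left run from -1.13 (Itgav) to -5.30 (Itga8).

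An integrin needs both subunits, so the α and β genes of 20 known heterodimers were set side by side. Both genes were called lower in the epithelium for 10 pairs, among them those of α1β1, α5β1, α8β1, αvβ3, αvβ8 and αLβ2. No pair could have both genes called higher in the epithelium, since no α subunit gene was called higher there. The genes of αvβ6 were called in opposite directions, Itgav lower and Itgb6 higher in the epithelium, which held in 16 of 20 alternatives and ended in the 4 where Itgav lost its call. Both genes were called lower for 7 pairs with equal medians, ribosomal centring or without epithelium A, and for 2 pairs where all probe sets of each gene were averaged, which also ended the call of Itgb1. The log2 value of Itgb6 over Itgav had a measured difference of 3.80 between tissues, where Itgb6 was not above background in the mesenchyme. That of Itgb4 over Itga6 differed by 2.73. In both cases all 3 epithelial arrays lay above all 3 mesenchymal arrays. An exact two-sided permutation test gave p = 0.1 for both, the smallest p that 3 against 3 arrays allow, and 0.125 after adjustment over the 20 pairs. Most of the 20 pairs reached the same p, among them Itga2 with Itgb1 and Itgae with Itgb7, so it does not set these pairs apart. These pairs share subunits, and an array of RNA shows nothing of how many receptors assemble.

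**Figure D4:**
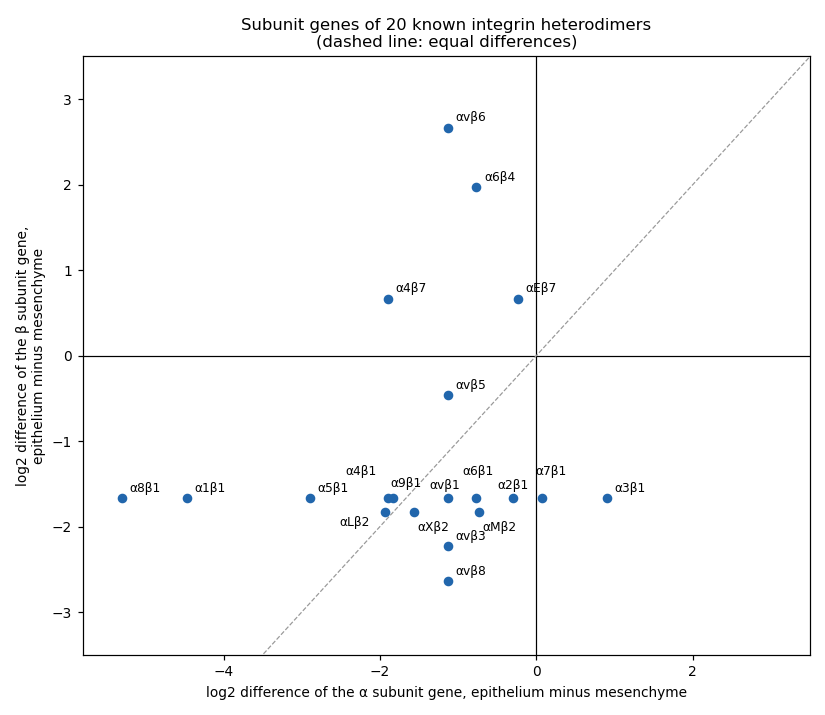
Log2 difference, epithelium minus mesenchyme, of the α subunit gene (x axis) and of the β subunit gene (y axis) for 20 known heterodimers; the dashed line marks equal differences. The pairs αvβ6, α6β4, α4β7 and αEβ7 lie above 0 on the y axis and below 0 on the x axis, and the β1 pairs share a row at -1.67.

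Integrins of leukocytes were lower in the epithelium for 3 of 6 genes. Itgb2, the β subunit of leukocytes, stood at 7.5, 7.4 and 7.5 in the epithelium, against 9.5, 9.0 and 9.4 in the mesenchyme (3.56-fold lower in the epithelium). It was not above background in epithelium B (level 7.71) and lay close above it in A and C (levels 7.20 and 7.24). Its partner Itgal, of the receptor LFA-1, stood at 7.9, 7.9 and 7.6 in the epithelium, against 9.8, 9.6 and 9.8 in the mesenchyme (3.82-fold lower in the epithelium). Its partner Itgax, of dendritic cells and macrophages, stood at 8.3, 8.6 and 8.4 in the epithelium, against 10.1, 9.9 and 10.0 in the mesenchyme (2.96-fold lower in the epithelium). The tissues did not overlap for any of these 3 genes. Itgam, of macrophages and granulocytes, stood at 6.8, 7.5 and 7.2 in the epithelium, against 8.2, 7.5 and 8.0 in the mesenchyme, where epithelium B equalled mesenchyme B and no call was made (measured difference -0.73 ± 0.23, limma adjusted p = 0.00485, epithelium not above background). Of 8 general leukocyte markers, 7 were called lower in the epithelium (87.5%, against 15.9% of all genes). The summed linear level of the 8 was 12498 to 16510 in epithelial arrays and 23822 to 26537 in mesenchymal arrays. Csf1r, the marker without a call, made up 85.3% to 86.5% of the epithelial sums and 35.5% to 38.3% of the mesenchymal sums. Without it the other 7 summed to 1688 to 2247 in epithelial arrays and 15042 to 17127 in mesenchymal arrays. Their part in the differences of these integrins was not tested.

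Itgb7, which joins α4 on gut-homing lymphocytes and αE on lymphocytes within the epithelium, was the exception. It stood at 9.7, 10.0 and 9.8 in the epithelium, against 8.9, 9.1 and 9.5 in the mesenchyme, so the tissues did not overlap, but the difference of 0.67 ± 0.23 (limma adjusted p = 0.0108) was below 2-fold. Itgae, the α subunit that binds E-cadherin, stood at 7.5, 7.8 and 7.5 in the epithelium, against 7.8, 7.6 and 8.1 in the mesenchyme (-0.23 ± 0.23, limma adjusted p = 0.436). None of 6 T, B and innate lymphoid markers was called, with summed linear levels of 1782 to 2330 in epithelial and 2067 to 2503 in mesenchymal arrays. Their part in the values of Itgb7 was not tested.

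Of the 7 other matrix receptors, 3 were called, and each was lower in the epithelium (42.9%, against 15.9% of all genes). Syndecans are heparan sulfate proteoglycans that bind matrix and growth factors. Sdc2, a syndecan of mesenchymal cells, stood at 8.4, 9.2 and 9.2 in the epithelium, against 10.9, 10.7 and 10.5 in the mesenchyme (3.40-fold lower in the epithelium), and Sdc3, known from nerve and muscle, differed by -1.27 ± 0.23. The call of Sdc3 ended with equal medians (-0.97). Sdc4, a syndecan found in focal adhesions, stood at 10.5, 10.9 and 11.1 in the epithelium, against 10.1, 10.0 and 9.8 in the mesenchyme. Its excess in the epithelium of 0.87 ± 0.23 (limma adjusted p = 0.000679) was below 2-fold and passed at 1.17 with equal medians, 1.08 after quantile normalization, 1.06 after cyclic loess, 1.11 with ribosomal centring and 1.03 without epithelium A. Sdc1, known as the syndecan of epithelia and plasma cells, stood at 9.8, 10.3 and 10.1 in the epithelium, against 10.2, 9.9 and 9.8 in the mesenchyme, with overlap (0.10 ± 0.23, limma adjusted p = 0.754).

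Discoidin domain receptors are tyrosine kinases that bind collagen, and of these Ddr2 was called and Ddr1 was not. Ddr2, typical of fibroblasts, stood at 9.0, 9.2 and 9.2 in the epithelium, against 10.7, 10.5 and 10.4 in the mesenchyme (2.64-fold lower in the epithelium). Ddr1, known as the form of epithelia, stood at 10.0, 11.0 and 10.7 in the epithelium, against 11.4, 11.3 and 10.9 in the mesenchyme, where epithelium B lay above mesenchyme C and no call was made (-0.63 ± 0.23, limma adjusted p = 0.0171). Dag1, the laminin receptor dystroglycan, stood at 11.2, 11.9 and 11.6 in the epithelium, against 11.9, 12.0 and 11.8 in the mesenchyme, with overlap (-0.33 ± 0.23, limma adjusted p = 0.245).

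Of the 5 proteins that tie receptors to actin, 4 were lower in the epithelium (80.0%, against 15.9% of all genes) and Pxn was not called. Parva, which encodes α-parvin, stood at 8.6, 9.1 and 9.0 in the epithelium, against 11.7, 11.8 and 11.8 in the mesenchyme (7.29-fold lower in the epithelium). Its binding partner Ilk, the integrin-linked pseudokinase, stood at 9.9, 10.6 and 9.9 in the epithelium, against 12.7, 12.8 and 12.3 in the mesenchyme (5.53-fold lower in the epithelium). Vcl, the talin-binding protein vinculin, stood at 10.3, 11.0 and 10.7 in the epithelium, against 13.0, 12.8 and 12.8 in the mesenchyme (4.59-fold lower in the epithelium). Tln1, talin, which activates integrins, stood at 9.9, 10.5 and 10.4 in the epithelium, against 12.1, 12.4 and 12.0 in the mesenchyme (3.73-fold lower in the epithelium). None of these 4 genes overlapped between tissues. Pxn, the scaffold paxillin, stood at 12.3, 13.0 and 12.6 in the epithelium, against 12.2, 12.1 and 11.8 in the mesenchyme. It was the adaptor that lay above in the epithelium, without overlap but below 2-fold (0.60 ± 0.23, limma adjusted p = 0.0235). Smooth muscle is rich in such adaptors, and the summed linear level of 8 smooth muscle markers was 3315 to 3777 in epithelial arrays and 124108 to 127847 in mesenchymal arrays. Their part in the differences of the adaptors was not tested.

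The probe sets of a member did not always agree on the size of the difference. Of the 90 probe sets, 5 were called higher in the epithelium and 36 lower there, where 5.98% and 15.5% of all probe sets were called in these directions. Among the 25 members with several probe sets, 7 had all of them called the same way, 7 had none called, 11 had some called and some not, and none had probe sets called in opposite directions. Itga9 spanned the widest range, with differences of -0.90, -1.83 and -4.70. The last of these came from a probe set at 5.2, 5.4 and 5.4 in the epithelium, against 10.0, 10.0 and 10.1 in the mesenchyme, at least 6.28-fold lower in an epithelium that was not above background. Ddr2 differed by -1.40 in its brightest probe set and by -4.47 in the other, where the epithelium stood at 6.2, 6.8 and 6.4 and the mesenchyme at 11.1, 10.9 and 10.8, at least 11.7-fold lower in an epithelium that was not above background. Its difference was -2.93 in the mean of both. The 6 probe sets of Itgb1 ran from -1.93 to 0.03 with 3 called, and the 3 without a call were not above background on any of the 6 arrays. The 5 of Itgav ran from -1.80 to -0.17 with 2 called. Sdc2 ran from -0.27 to -3.20, Itga4 from -0.10 to -2.27, and Itgal, with a difference of -1.20 in the mean of its probe sets, from -0.47 to -1.93.

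Of the genes not called by their brightest probe set, 2 were called by another. A probe set of Itga3 differed by 1.17. A probe set of Sdc1 stood at 10.2, 10.6 and 10.5 in the epithelium, against 9.5, 8.9 and 9.7 in the mesenchyme (1.07), whereas the other 3 probe sets of Sdc1 differed by 0.10 to 0.33. All 8 probe sets of Ddr1 (-0.83 to 0.07), all 4 of Dag1 (-0.33 to 0.47) and all 4 of Itgb5 (-0.90 to -0.47) went without a call. Which exons or transcript ends each probe set reads was not analysed here, and the cause of the disagreements was not tested.

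**Figure D5:**
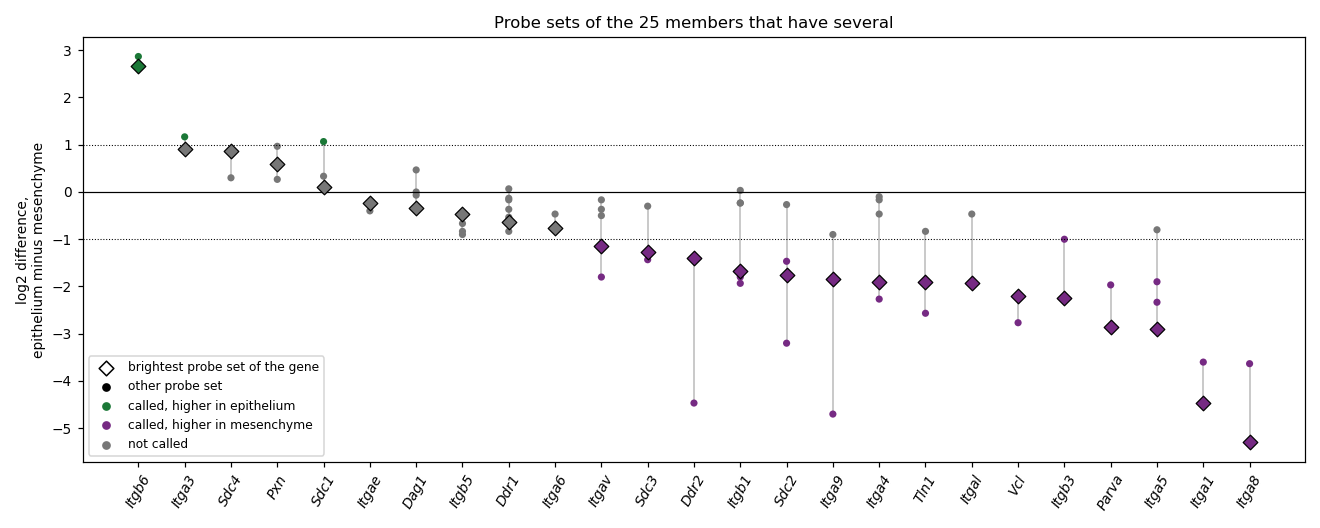
Log2 difference, epithelium minus mesenchyme (y axis), of every probe set of the 25 members that have several (x axis, ordered by the brightest probe set); diamonds mark the brightest probe set of a gene and colours the call. Ddr2, Itga9 and Sdc2 have probe sets far below their brightest one, and no gene has calls in opposite directions.

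Genes around these receptors were taken from lists of the pathway. Together the lists held 112 measured genes, with a median difference of -1.27 (-0.17 over all genes). Of these, 4 were higher (3.6%, against 8.20% of all genes) and 59 lower in the epithelium (52.7%, against 15.9%). Of 32 ligands, 28 were lower in the epithelium (87.5%, against 15.9% of all genes). They were led by the fibrillar collagen chains Col1a1 (-7.20) and Col3a1 (-7.17), the laminin chain Lama4 (-5.50) and nidogen-1 (Nid1, -5.37). Cdh1, the E-cadherin bound by αEβ7, was higher there (5.63). Col1a1 and Col3a1 are also among the fibroblast markers and Cdh1 among the epithelial markers given above. Of 18 core adaptors, 11 were lower in the epithelium (61.1%, against 15.9% of all genes). Among them were the kindlin Fermt2 (-5.70), filamin A (Flna, -5.60), Tgfb1i1, the paxillin relative Hic-5 (-4.73), and Rsu1, a partner of the Ilk complex (-2.67). Of 17 kinases and signalling adaptors, 4 were lower in the epithelium (23.5%, against 15.9% of all genes). They were caveolin-1 (Cav1, -5.9), the kinase Fyn (-2.27), the adaptor Git2 (-1.20) and the small GTPase Rap1b (-1.0, just at the 2-fold limit).

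Of 13 genes of the dystroglycan complex and its glycosylation, 6 were lower in the epithelium (46.2%, against 15.9% of all genes). In front were Sgcd (-3.00), Sntb1 (-2.60), Sgcb (-2.20) and Sgce (-1.60), sarcoglycans and a syntrophin, while Dag1 itself was not called. Of 20 further receptors and associated membrane proteins, 10 were lower in the epithelium, led by the hyaluronan receptors Lyve1 (-5.23) and Cd44 (-3.47), the endothelial protein Cd93 (-4.73) and the glypican Gpc6 (-3.27), and the tetraspanin Cd82 was higher there (1.70). Of 9 genes of epithelial anchorage, the keratins Krt18 (3.33) and Krt8 (3.23) were higher in the epithelium (22.2%, against 8.20% of all genes). Krt8 is also 1 of the 8 epithelial markers, so its call adds nothing to theirs. The others were not called, namely the laminin-332 chains Lama3 (0.70) and Lamb3 (-0.33), plectin (Plec, 0.40), Erbin (-0.13), the tetraspanin Cd151 (-0.37), Col17a1 (-0.60) and dystonin (Dst, -0.90). None of 3 integrin genes outside the set was called (Itga10 at -0.87, Itga2b at -0.30 and Itgbl1 at 0.37).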

How the data were processed

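The deposited values are log2 expression values from Affymetrix mouse arrays, made with RMA per the submitters' processing notes, whose version, settings and step between arrays are not given in the sources used here. Of 45101 probe sets, 64 controls were left out. The platform annotation gave 1 symbol for 34945, several for 932 (not used, and none held a member) and none for 9160, and 34943 matched a current RefSeq symbol (GRCm38.p6).

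Genes were tested with limma 3.58.1 (R 4.3.3; lmFit, eBayes) on 6 arrays without covariates, on the probe set with the highest mean, with Benjamini-Hochberg adjustment over 18161 genes. The prior had 262.9 degrees of freedom and the residual 4. Probe sets were tested likewise over 45037. The script was tested on simulated data. Pairs of subunits were compared by exact permutation. The background level, the 95th percentile of 27 bacterial control probe sets, was chosen after seeing the data, and whether their RNA was added is not stated.

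All members were named, all genes of the lists of further integrins and epithelial anchorage, and up to 4 called genes per direction of other lists. Members and lists were chosen with earlier results of these data known. Which embryos went into which pool is not stated. The limma p-values rest mostly on a spread shared over all genes, not on that gene's own spread between these chosen pools. On each gene's own spread, adjusted p-values of the 21 called members ran from 0.00128 to 0.0373. As the embryos of each pool are not stated, the letters were not treated as pairs. Deviations of same-lettered arrays correlated at -0.311 (A), -0.151 (B) and 0.120 (C). Those of unlike letters ran from -0.253 to 0.360, so these values cannot show whether same-lettered arrays share embryos. Other scalings, gene summaries, filters, priors and left-out arrays were tried.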

Additional observations from a re-analysis of the deposited data

How the results depend on the processing

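Over 20 alternatives, 653 of 680 member results kept their call, 7 lost it, 20 gained it and none reversed. Of the 21 called members, 17 kept their call under every alternative, with Itgav, Itgb1, Itga4 and Sdc3 as the exceptions described with these genes. The number of members called higher in the epithelium was 2. It was 4 with equal medians, quantile normalization, cyclic loess or ribosomal centring, where Itga3 and Sdc4 passed, 6 with no minimum difference, and 2 to 4 with each array left out in turn. The number called lower in the epithelium ran from 16 (mean of a gene's probe sets) to 22 (no minimum difference). With no minimum difference, 2730 genes of all were called higher and 5356 lower in the epithelium, and 7 genes of the pathway lists were called higher there. The replicate block on the letters left the members' counts at 2 and 19, and gave 1488 and 2889 calls over all genes. Equal spike-in controls rest on mesenchyme B, where they averaged 9.80 against 10.56 to 10.77 elsewhere, and without it 3 members were higher (Itga3 at 1.01 being added) and 19 lower. The alternatives with spike-in controls less mesenchyme B, a prior over probe sets and each gene's own spread were added after seeing the data. The median of all genes shifted by 0.30 (equal medians), 0.27 (quantile), 0.21 (loess), 0.24 (ribosomal) and -0.26 (spike-in). For the 4 called members not above background in 1 tissue, folds are lower bounds, and that of Itgb8 lies under 2-fold.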
